A study of Mus musculus with 6 samples.

Results

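The conjugation enzymes of phase II drug metabolism were followed in hepatocytes of mice with an inducible transgene for the microRNA miR-143. The members are the gene symbols of the platform annotation that begin with Gsta, Gstm, Gstp, Gstt, Gstk, Gsto or Gstz (glutathione S-transferases, GST), Ugt1a, Ugt2 or Ugt3 (UDP-glycosyltransferases, UGT) or Sult (sulfotransferases, SULT), and they number 53 of 21376 symbols. The rule used names only and no measured value, but it was set with earlier results of these data known. Of the 53, 21 are GST, 20 are UGT and 12 are SULT genes. Probe sets that named the gene alone were present for 50 of them, and Gsta1, Gsta2 and Sult2a1 were read only through probe sets that name several genes.

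RNA came from hepatocytes of 6 adult C57BL/6 mice, freed from the liver by perfusion with EGTA and collagenase, and was hybridised to Affymetrix arrays, 1 array per mouse. The miR-143DOX group (n = 3) carried a transgenic allele from which doxycycline induces miR-143, and the control group (n = 3) was wildtype littermates. Both groups drank 4 mg/ml doxycycline in 10% sucrose for 8 days, so the controls also received the drug and the sugar. The promoter that drives the transgene, the cells in which it is active and the sex of the mice are not in the labels. No value of miR-143 itself was used here. The question is whether any conjugation enzyme transcript differs between hepatocytes with and without induced miR-143.

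Conjugation makes a hydrophobic compound soluble by joining it to a polar group. GST enzymes attach glutathione to reactive electrophiles, UGT enzymes of the endoplasmic reticulum transfer a sugar, mostly glucuronic acid, to bilirubin, steroids and drugs, and SULT enzymes of the cytosol transfer sulfate to phenols, steroids and catecholamines. The liver is the main site of all 3 reactions, and the conjugates leave the hepatocyte through ABC transporters into bile or blood. Many of the genes are induced by the oxidative stress factor NRF2 and by the xenobiotic receptors CAR, PXR and Ah receptor, and several differ between male and female mouse liver. Most lie in gene clusters, and the Ugt1a genes are 1 locus in which each isoform has its own promoter and first exon in front of shared last exons.

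Short stretches of member promoters show these separate starts. They come from RefSeq windows of 250 bases before to 50 bases after a gene's start (build GRCm38.p6), which matched 47 of the 53 members by symbol. Capitals mark the HNF1 motif GTTAAT, read on both strands and so also as ATTAAC. HNF1 is a liver transcription factor known to act on Ugt1a and Ugt2b promoters. Shown are the 4 Ugt1a isoforms that hold the letters, and 2 further members described below, Ugt2a3 and Sult1d1.
Ugt1a1, chr1:88211898-88211943, + strand: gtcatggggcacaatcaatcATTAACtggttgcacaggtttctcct
Ugt1a6a, chr1:88134739-88134784, + strand: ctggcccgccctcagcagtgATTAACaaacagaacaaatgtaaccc
Ugt1a9, chr1:88070668-88070713, + strand: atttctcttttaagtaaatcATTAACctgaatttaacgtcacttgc
Ugt1a10, chr1:88055291-88055365, + strand: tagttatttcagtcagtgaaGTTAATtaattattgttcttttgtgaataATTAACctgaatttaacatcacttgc
Ugt2a3, chr5:87337217-87337269, - strand: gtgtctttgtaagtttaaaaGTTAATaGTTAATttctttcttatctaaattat
Sult1d1, chr5:87569060-87569105, - strand: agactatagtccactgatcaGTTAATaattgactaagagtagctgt
The Ugt1a9 and Ugt1a10 stretches share a run of 17 bases that holds the letters, the longest among the 4 Ugt1a stretches. GTTAAT occurred in 9 of 47 members (19.1%), against 8.24% of the 27025 genes with a window. The other 3 members with it were Gsta3, Sult1a1 and Ugt3a1, and no Ugt2b window held it. A match describes letters in a window and not a bound site.

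The antioxidant response element core TGACNNNGC, the element of NRF2, was found on either strand in 3 of 47 members (6.38%), against 14% of all genes with a window. The 3 members are GST genes, with the match in capitals.
Gsta3, chr1:21240444-21240492, + strand: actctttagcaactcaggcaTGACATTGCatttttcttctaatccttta
Gstm5, chr3:107895792-107895840, + strand: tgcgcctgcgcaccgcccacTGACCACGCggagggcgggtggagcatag
Gstm7, chr3:107931715-107931763, - strand: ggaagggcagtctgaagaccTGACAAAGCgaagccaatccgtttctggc
Elements further from the start lie outside these windows. The Ah receptor core GCGTG occurred in 19.1% of members and 35.2% of all genes with a window, and the D-box TTATGTAA, the element of the clock output factors Dbp, Tef and Hlf, in 1 member, Ugt2b1 (2.13%, against 1.11% of all genes).

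The arrays gave log2 intensities, in which a difference of 1 is 2-fold. They were quantile normalised, a gene's value is the mean of its own probe sets, and the genes in the lowest 25% of all values (mean under 5.06) were left out, since without a detection call such values cannot be told from background. This left 15312 genes and 42 of the 50 members, namely 17 GST, 18 UGT and 7 SULT genes. Pearson r between pairs of arrays was 0.936 to 0.954, taken over probe sets that are not independent replicates, and all 10 hepatocyte markers (among them Alb, Apoa1, Ttr and Cps1) were above the filter. Of other cells' markers, 5 of 7 cholangiocyte, 8 of 8 sinusoidal endothelial, 7 of 7 Kupffer and 7 of 7 stellate cell genes passed it, as did 3 of 6 lymphocyte, 1 of 6 neutrophil and 1 of 2 erythroid genes. The mean deviation of each list from its own average over the arrays overlapped between the groups, except for the 3 lymphocyte genes (-0.02, -0.05 and -0.08 in control and 0.00093, 0.11 and 0.03 in miR-143DOX). All 8 endothelial genes lay below 0 in the group difference, with a median of -0.12. The part of these other cells in the results was not tested. In such bulk RNA, fewer cells of a type and less RNA per cell cannot be told apart. The labels do not say whether the mice came from 1 litter. The p-values set a difference against the spread within the groups of these 6 animals, drawn toward that of all genes.

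For none of the tested conjugation enzymes was a difference between miR-143DOX and control hepatocytes detected in the test. Of 42 members tested, 0 passed a false discovery rate (FDR) of 5% in limma, adjusted over the whole table, 0 reached even an unadjusted p of 0.05 in either direction, and for 0 did the 3 arrays of one group lie wholly above or below those of the other. Over all 15312 genes tested, 0.00% passed the 5% rate, 1.38% had an unadjusted p under 0.05 and were higher, 1.68% had one and were lower, and 3.40% were higher and 3.73% lower without overlap. The smallest adjusted p of a tested member was 0.9997 in limma. Ordered by p, the first members were the sulfotransferase gene Sult1d1, Ugt1a10, Sult4a1 and Ugt3a1.

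Of the 42 members, 18 lay above 0 and 24 below, and their median was -0.04 (log2 difference, miR-143DOX minus control) beside 0.01 for all genes tested, of which 52.4% lay above 0. The median was 0.02 for GST (11 of 17 above 0), -0.08 for UGT (4 of 18 above 0) and -0.14 for SULT (3 of 7 above 0). The largest differences were -0.60 for Ugt1a10 and 0.27 for Sult4a1. The 95% interval of the difference lay inside a 2-fold change in either direction for 39 of 42 members (92.9%, against 98.7% of all genes) and inside a 1.5-fold change for 24 (57.1%, against 85.3%). A change past 2-fold was within the limma interval for Gstp2, Ugt1a10 and Ugt1a7c only, each on the side of lower values in miR-143DOX. These intervals draw the spread of each gene toward that of all genes, and the counts above rest on this. For members with a wide spread of their own, such as Ugt1a9 (within-group SD 0.80), they are narrower than that spread alone would give.

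**Figure D1:**
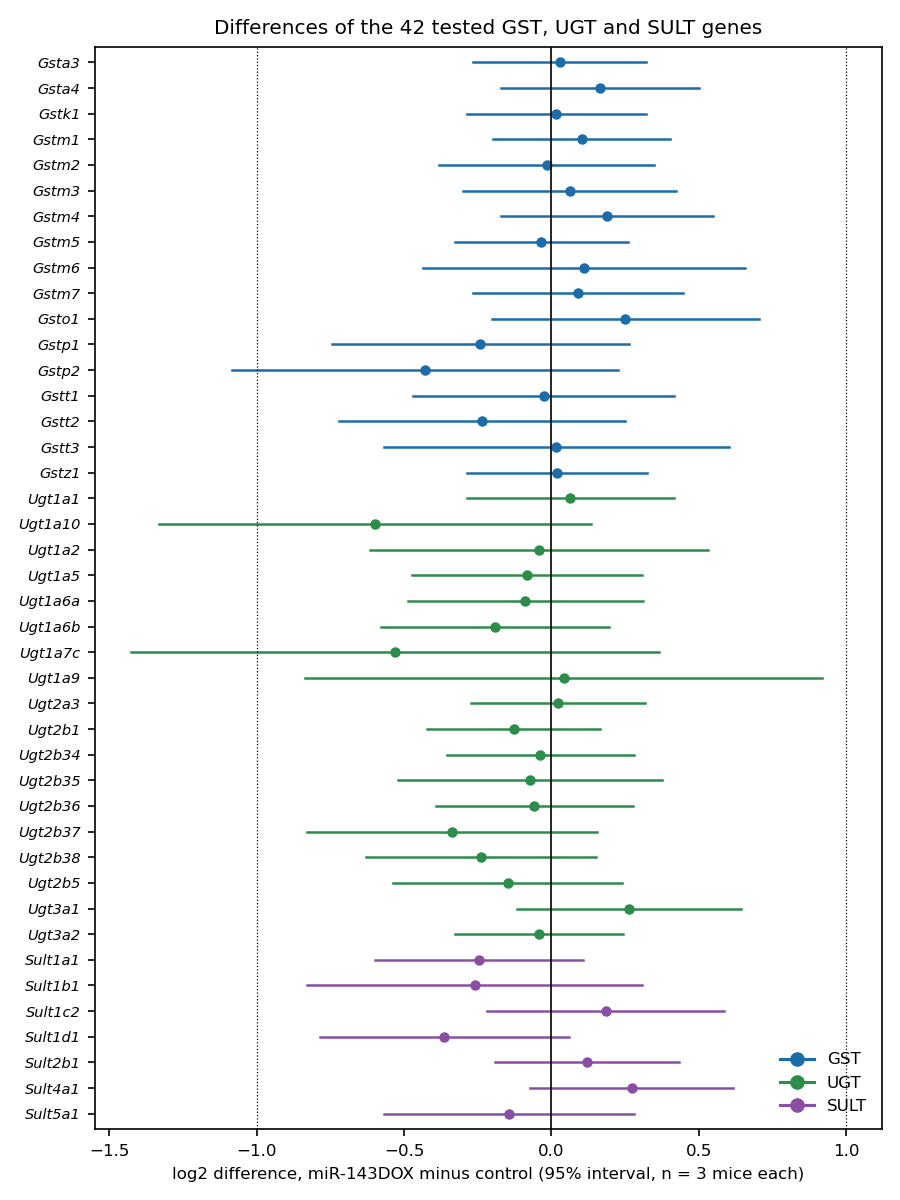
Log2 difference between miR-143DOX and control hepatocytes (horizontal axis) for each of the 42 tested members (rows), with points for the difference, bars for its 95% interval in limma (3 mice per group) and dotted lines at a 2-fold change. All 42 intervals cross 0, and only those of Gstp2, Ugt1a10 and Ugt1a7c reach past -1.

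The members had a larger median spread between mice of a group than all genes tested, which is a description with no test. The median within-group SD was 0.268 over the 42 members and 0.177 over all genes tested. It was 0.384 for the 6 members read by 1 probe set and 0.246 for the 36 with more, against 0.199 and 0.176 for all genes split the same way. The mouse that was most often the highest differed between GST and UGT genes, and the same counts over all genes were not made. miR-143DOX replicate 1 was the highest of the 6 arrays for 9 of 17 GST genes and the lowest for 10 of 18 UGT genes. Control replicate 3 was the lowest for 10 of 17 GST genes. miR-143DOX replicate 3 was the highest for 7 of 18 UGT genes and for no GST gene. Within GST the 2 Gstp genes went the other way, with control replicate 3 the highest and miR-143DOX replicate 1 the lowest in both. Of the 7 SULT genes, no array was the highest for more than 2.

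**Figure D2:**
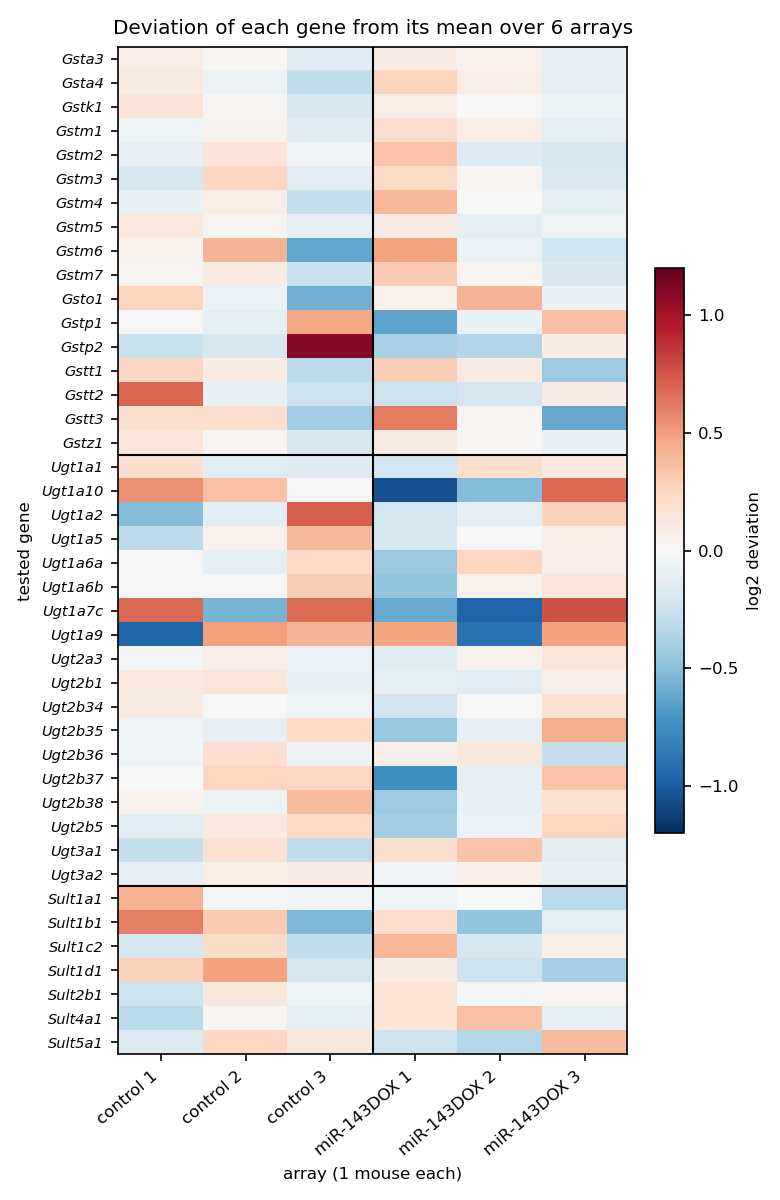
Heat map of the 42 tested members (rows, with lines between GST, UGT and SULT genes) on the 6 arrays (columns, 3 control and 3 miR-143DOX mice), coloured by the log2 deviation from the gene's mean over the arrays. The columns of miR-143DOX replicate 1 and control replicate 3 have opposite colours in many GST rows and in many UGT rows, and in none of the 42 rows do the left 3 columns all lie above or all below the right 3.

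Averaged over its tested genes, the GST class deviated by 0.08, 0.05 and -0.14 on control replicates 1, 2 and 3 and by 0.13, -0.01 and -0.12 on miR-143DOX replicates 1, 2 and 3. The UGT class deviated by -0.04, 0.05 and 0.18 on the control arrays and by -0.28, -0.11 and 0.20 on the miR-143DOX arrays. SULT genes averaged 0.05, 0.20 and -0.16 in control and 0.10, -0.13 and -0.06 in miR-143DOX. In all 3 classes the groups overlapped. Dbp, a clock output factor that acts on detoxification genes, also ranged widely, at 10.08, 8.06 and 8.04 in control replicates 1 to 3 and 6.99, 8.14 and 9.35 in miR-143DOX replicates 1 to 3. The core clock gene Arntl stood at 5.56, 7.80 and 7.19 in control and 8.24, 7.25 and 6.35 in miR-143DOX. miR-143DOX replicate 1 was thus the array with the lowest Dbp and the highest Arntl. The labels do not give the hour at which each liver was taken, and the part of the clock in these spreads was not tested. A fit with Dbp minus Arntl as a covariate tested the group difference only, so it cannot decide this. In it, as in the main fit, 0 members passed and 0 reached an unadjusted p of 0.05. There the difference of Ugt1a10 was -0.37, against -0.60 in the main fit, and that of Sult1d1 was -0.41, against -0.36.

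**Figure D3:**
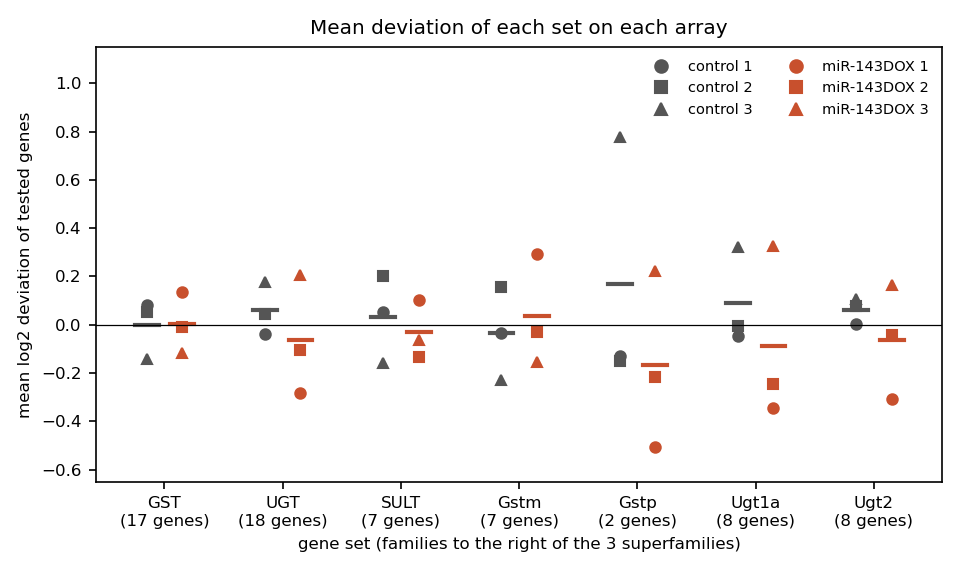
Mean log2 deviation (vertical axis) of the tested genes of 3 enzyme classes and 4 families (horizontal axis) on each array, with grey marks for control, orange marks for miR-143DOX, a symbol for each replicate number and bars for the group means. The marks of the groups overlap in every column, and for Gstp the highest mark is control replicate 3 and the lowest is miR-143DOX replicate 1.

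Alpha-class GST enzymes, which handle products of lipid peroxidation, were 0.03 to 0.28 higher on average in miR-143DOX, and the groups overlapped in each of these averages. Values of Gsta3 on control replicates 1, 2 and 3 were 12.39, 12.33 and 12.16, and on miR-143DOX replicates 1, 2 and 3 they were 12.40, 12.35 and 12.21. The groups lay on top of each other, at a difference of 0.03 (95% interval -0.26 to 0.32). Gsta4, which prefers the lipid aldehyde 4-hydroxynonenal, measured 9.26, 9.09 and 8.86 in control and 9.42, 9.23 and 9.05 in miR-143DOX. Its miR-143DOX arrays were mostly higher, but control replicate 1 lay above miR-143DOX replicates 2 and 3, and the difference of 0.17 had an interval of -0.17 to 0.50. Of the 8 probe sets of Gsta3, 1 was lower without overlap (difference -0.46), and of the 7 of Gsta4, 1 was higher without overlap (0.30). Over all probe sets tested, 4.54% were lower and 4.31% higher without overlap. Gsta1 and Gsta2, the alpha-class genes best known as NRF2 targets, share all their 28 probe sets with the predicted gene Gm10639 and most with each other, and 15 of the 28 are distinct in value. The mean of the 15 was 8.11, 8.04 and 7.76 in control and 8.55, 8.32 and 7.88 in miR-143DOX. It was 0.28 higher in miR-143DOX on average, with miR-143DOX replicate 3 below control replicates 1 and 2. Of the 15 distinct probe sets 13 lay above 0, over a range of -0.18 to 0.80, and of the 13 bright enough to test, 0 passed (smallest adjusted p = 0.9995 in limma over all probe sets). These probe sets share their RNA and partly their sequence, and are not replicates.

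The 7 mu-class genes form 1 cluster of close relatives that conjugate epoxides and other electrophiles. Their median difference was 0.09, with 5 above 0 and 2 below. Gstm1, the major mu-class gene of mouse liver, was measured at 11.13, 11.22 and 11.03 in control and 11.37, 11.26 and 11.06 in miR-143DOX (difference 0.10, 95% interval -0.20 to 0.40). For Gstm4 the control arrays read 9.14, 9.29 and 8.93 and the miR-143DOX arrays 9.61, 9.21 and 9.11, the largest mean difference of the class at 0.19 (-0.17 to 0.55). Gstm7 read 9.71, 9.78 and 9.41 in control and 9.98, 9.70 and 9.49 in miR-143DOX (difference 0.09, -0.27 to 0.45). In these 3 genes and in Gstm2 and Gstm6, miR-143DOX replicate 1 was the highest array, and miR-143DOX replicate 3 lay below the highest control in each. Gstm3 broke this order, at 9.79, 10.26 and 9.87 in control, where replicate 2 was the highest of all, and 10.24, 10.04 and 9.83 in miR-143DOX. The widest range belonged to Gstm6, at 1.10 over the 6 arrays, and the narrowest to Gstm5, at 0.24. Differences were -0.02 for Gstm2, 0.06 for Gstm3, -0.03 for Gstm5 and 0.11 for Gstm6. The genes are near-identical in part, so signal of one may be read by probes of another, which was not tested.

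Both pi-class genes were lower on average in miR-143DOX, and Gstp2 had the largest mean difference of the GST genes, but each difference was gone without 1 array. Pi-class GST is known to be higher in male than in female mouse liver, and the labels do not give the sex of these mice. Gstp1 measured 11.67, 11.56 and 12.13 in control and 11.03, 11.58 and 12.02 in miR-143DOX, a difference of -0.24 (95% interval -0.74 to 0.26) that was 0.01 with miR-143DOX replicate 1 left out, but -0.48 when miR-143DOX replicate 3 was left out. For Gstp2, control replicates 1 and 2 read 7.21 and 7.28 and control replicate 3 read 8.57, against 7.09, 7.12 and 7.56 in miR-143DOX. Its difference was -0.43 (-1.08 to 0.23), and it was 0.01 with control replicate 3 left out, but -0.67 when control replicate 1 was left out. Of its 4 probe sets 2 hold identical values on all 6 arrays, and with these counted once the difference was -0.40. The 6 probe sets that name both genes averaged 11.46, 11.36 and 11.67 in control and 10.77, 11.37 and 11.60 in miR-143DOX, and all 6 lay below 0 (mean -0.25). On these, as on Gstp1, miR-143DOX replicate 1 was the lowest array, and miR-143DOX replicate 3 lay above control replicates 1 and 2.

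Theta-class genes act on small halogenated compounds, and their arrays were spread within both groups. Gstt1 read 9.65, 9.49 and 9.08 in control and 9.69, 9.49 and 8.96 in miR-143DOX (difference -0.03, interval -0.47 to 0.42). Gstt3 had a still wider spread, from 7.82 in miR-143DOX replicate 3 to 9.04 in miR-143DOX replicate 1, with 8.62, 8.63 and 8.02 in control, so the extremes of the 6 arrays were both miR-143DOX mice. The difference of Gstt3 was 0.02 (-0.57 to 0.60). In Gstt2, control replicate 1 stood apart at 9.15, above 8.36 and 8.19 in the other controls and 8.20, 8.25 and 8.55 in miR-143DOX. The Gstt2 difference of -0.23 became 0.06 without that array and -0.42 without control replicate 3. Gstt4 was below the filter, at 4.59 to 4.86.

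The 3 single genes of other GST classes all overlapped between the groups. Gstk1, the kappa-class enzyme of mitochondria and peroxisomes, measured 10.64, 10.50 and 10.30 in control and 10.57, 10.49 and 10.43 in miR-143DOX (difference 0.02, interval -0.29 to 0.32). Gstz1, which is the maleylacetoacetate isomerase of tyrosine breakdown, read 12.28, 12.16 and 11.94 in control and 12.23, 12.15 and 12.05 in miR-143DOX (difference 0.02, -0.29 to 0.32). Over the 6 arrays Gstk1 ranged over 0.35 and Gstz1 over 0.34, with control replicate 3 the lowest in each. Gsto1, an omega-class enzyme that reduces dehydroascorbate, read 8.50, 8.16 and 7.65 in control and 8.28, 8.63 and 8.15 in miR-143DOX. Its 5 probe sets all lay above 0, but the difference of 0.25 (-0.20 to 0.70) was 0.03 with control replicate 3 left out, but 0.45 when control replicate 1 was left out. Gsto2 was below the filter, at 4.73 to 4.997.

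For the Ugt1a locus the array reads isoforms only through their first exons, by 1 or 2 probe sets each, while 6 probe sets name several or all isoforms. The shared probe sets read the locus as a whole, with means of 11.51, 11.69 and 11.83 in control and 11.67, 11.64 and 11.81 in miR-143DOX (difference 0.03). Of the 6, 3 lay above 0 and 3 below. Ugt1a1, the bilirubin glucuronosyltransferase, had overlapping groups too, at 13.18, 12.85 and 12.83 in control and 12.76, 13.19 and 13.10 in miR-143DOX (difference 0.06, interval -0.29 to 0.41). Ugt1a6a, a phenol glucuronosyltransferase, read 11.20, 11.11 and 11.44 in control and 10.76, 11.46 and 11.26 in miR-143DOX (difference -0.09, -0.49 to 0.31), and its close relative Ugt1a6b 11.89, 11.88 and 12.19 in control and 11.41, 11.94 and 12.03 in miR-143DOX (difference -0.19, -0.58 to 0.20). In both Ugt1a6 genes miR-143DOX replicate 1 was the lowest array and the other 2 lay within or next to the control range. Ugt1a2 and Ugt1a5 differed by -0.04 and -0.08.

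Other first exons of the locus split the mice across the groups. Ugt1a9 measured 8.56, 10.01 and 9.93 in control replicates 1 to 3 and 9.99, 8.63 and 10.00 in miR-143DOX replicates 1 to 3. Control replicate 1 and miR-143DOX replicate 2 were thus low, and the other 4 mice lay between 9.93 and 10.01. Both probe sets of Ugt1a9 showed it, at 7.57 and 7.28 against 8.42 to 8.71 for one and at 9.55 and 9.98 against 11.31 to 11.51 for the other. The group difference was 0.04 (-0.84 to 0.92). Ugt1a7c split otherwise, with 8.81, 7.57 and 8.80 in control and 7.52, 7.16 and 8.89 in miR-143DOX, so that control replicate 2 and miR-143DOX replicates 1 and 2 were low. Its difference was -0.53 (-1.43 to 0.36), and with 1 array left out it ran from -0.18 (without miR-143DOX replicate 2) to -1.05 (without miR-143DOX replicate 3). Ugt1a10, the member with the largest mean difference, read 7.23, 7.04 and 6.69 in control and 5.63, 6.17 and 7.36 in miR-143DOX. There, miR-143DOX replicates 1 and 2 were below every control mouse and replicate 3 was above every one, for a difference of -0.60 (-1.33 to 0.14). It was -0.22 with miR-143DOX replicate 1 left out, but -1.09 when miR-143DOX replicate 3 was left out, the latter with adjusted p = 0.322 in limma. Ugt1a7c and Ugt1a10 rest on 1 probe set each.

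Ugt2 enzymes glucuronidate steroids, bile acids and drugs, and 7 of 8 tested members lay below 0, at a median of -0.10. Ugt2b1 measured 11.14, 11.17 and 10.95 in control and 10.91, 10.89 and 11.08 in miR-143DOX (difference -0.13, interval -0.42 to 0.17). Ugt2b5 read 11.14, 11.39 and 11.51 in control and 10.86, 11.20 and 11.53 in miR-143DOX (difference -0.15, -0.54 to 0.24). For Ugt2b34 the values were 11.85, 11.74 and 11.69 in control and 11.50, 11.74 and 11.92 in miR-143DOX (difference -0.04, -0.35 to 0.28). In Ugt2b5 and Ugt2b34 miR-143DOX replicate 1 was the lowest array and replicate 3 the highest of all 6, so the miR-143DOX mice bracketed the controls. The same held for Ugt2b37, at 7.59, 7.85 and 7.84 in control and 6.86, 7.48 and 7.93 in miR-143DOX. Its mean difference, -0.34 (-0.83 to 0.16), was -0.05 with miR-143DOX replicate 1 left out, but -0.59 when miR-143DOX replicate 3 was left out. Ugt2b38 read 10.63, 10.52 and 10.97 in control and 10.15, 10.50 and 10.76 in miR-143DOX (difference -0.24, -0.63 to 0.15), and the difference ran from -0.08 to -0.38 without those same arrays. Ugt2b35 and Ugt2b36 differed by -0.07 and -0.06.

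Among the Ugt2a genes only Ugt2a3 was above the filter, and the 2 Ugt3a genes lay on opposite sides of 0. Ugt2a3, whose promoter holds the motif 2 times, as shown above, was even across mice, at 11.94, 12.03 and 11.89 in control and 11.82, 12.004 and 12.11 in miR-143DOX (difference 0.02, interval -0.27 to 0.32). Ugt3a1, which transfers N-acetylglucosamine in place of glucuronic acid, read 10.25, 10.71 and 10.24 in control and 10.72, 10.87 and 10.40 in miR-143DOX. All 5 of its probe sets lay above 0, yet control replicate 2 stood level with miR-143DOX replicate 1, and the difference of 0.26 had an interval of -0.12 to 0.64 and ran from 0.16 without miR-143DOX replicate 2 to 0.42 without control replicate 2. Its neighbour Ugt3a2, which uses other UDP-sugars, read 11.58, 11.74 and 11.76 in control and 11.63, 11.74 and 11.59 in miR-143DOX (difference -0.04, -0.33 to 0.24), and the 4 distinct probe sets common to both genes averaged 0.04. Ugt2a1 and Ugt2a2 were below the filter. Ugt2a2, read by 1 probe set, was the only one of the 50 members whose groups did not overlap, at 5.48, 4.91 and 5.27 in control and 4.88, 4.83 and 4.24 in miR-143DOX. With no filter on dim genes its difference was -0.57 (limma, adjusted p = 0.9997), and Ugt2a1 differed by -0.47 (adjusted p = 0.9997). Signals this dim cannot be told from background here.

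Of the 7 sulfotransferase genes tested, 4 lay below 0 (Sult1d1, Sult1b1, Sult1a1 and Sult5a1) and 3 above (Sult4a1, Sult1c2 and Sult2b1), and the groups overlapped in all 7. Sult1d1, a catecholamine sulfotransferase, measured 10.53, 10.73 and 10.03 in control and 10.35, 10.00 and 9.85 in miR-143DOX. Control replicate 3 lay at the level of miR-143DOX replicate 2, and miR-143DOX replicate 1 among the controls. The difference was -0.36 (95% interval -0.78 to 0.06), and it ran from -0.21 without control replicate 2 to -0.56 without control replicate 3. All 10 probe sets of Sult1d1 lay below 0, from -0.78 to -0.16, and in 1 of them the groups did not overlap, at 10.06, 10.22 and 9.62 in control and 9.47, 9.05 and 9.04 in miR-143DOX. That probe set had an adjusted p of 0.9995 over all probe sets in limma. Over all probe sets tested, 4.54% had no overlap in that direction.

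Sult1a1, a phenol sulfotransferase, read 10.86, 10.42 and 10.41 in control and 10.39, 10.44 and 10.12 in miR-143DOX. Control replicate 1 was high and miR-143DOX replicate 3 low, the other 4 mice lay between 10.39 and 10.44, and all 8 probe sets lay below 0 (difference -0.25, interval -0.60 to 0.11). That difference was -0.10 with control replicate 1 left out, but -0.32 when control replicate 3 was left out. Sult1b1, which sulfates thyroid hormone, was spread over 1.13 across the arrays, with 8.09, 7.80 and 6.96 in control and 7.68, 7.01 and 7.38 in miR-143DOX. Controls were both the highest and the lowest of the arrays. The difference of -0.26 (-0.83 to 0.31) was -0.02 with control replicate 1 left out, but -0.59 when control replicate 3 was left out. Sult5a1 measured 6.95, 7.37 and 7.25 in control and 6.87, 6.78 and 7.50 in miR-143DOX (difference -0.14, -0.57 to 0.28), where miR-143DOX mice were both the lowest and the highest. Sult4a1, a member known mainly from brain, read 5.03, 5.38 and 5.25 in control and 5.52, 5.71 and 5.25 in miR-143DOX. It is dim, at the percentile 31.9 of gene levels, and its difference of 0.27 (-0.07 to 0.62) was 0.03 with the median of its 10 probe sets, and 0.16 to 0.40 with 1 array left out. Sult1c2 and Sult2b1 differed by 0.18 and 0.12.

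**Figure D4:**
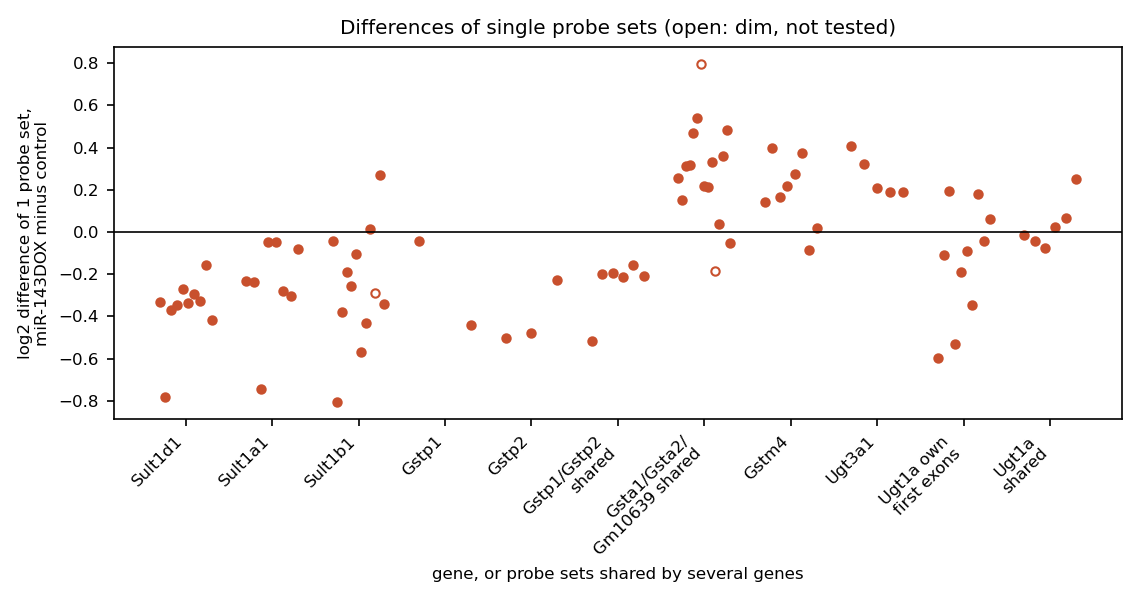
Log2 difference between miR-143DOX and control (vertical axis) of each distinct probe set (points, open where dim and not tested) for genes or shared groups (horizontal axis). All points of Sult1d1, Sult1a1, Gstp1, Gstp2 and their shared group lie below 0. Those of Ugt3a1 and most of the Gsta1/Gsta2 group lie above it, and the shared Ugt1a exons run from -0.07 to 0.25.

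Sult2a1, a hydroxysteroid sulfotransferase, the oestrogen sulfotransferase gene Sult1e1 and Sult3a1 are known for higher levels in female than in male mouse liver or, for Sult1e1, in diseased liver, and all 3 were below the filter here. Sult3a1 lay between 2.73 and 3.12, Sult1e1 between 3.61 and 4.16, and the 3 probe sets that name Sult2a1 with the predicted gene Gm5584 between 3.27 and 3.84 on average. Sult1c1 and Sult6b1 were also below the filter, at 3.86 to 4.29 and 3.39 to 3.73. No difference was detectable at these levels. Sult2a8 was not analysed here.

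Over single probe sets, 275 of the 340 that name a member were tested among 176154, and 0 passed 5% FDR in limma (0.00% of all did). An unadjusted p under 0.05 was found for 1 higher and 1 lower, where 1.99% and 2.19% of all probe sets tested stood. These were 1 probe set of Sult4a1 (difference 1.02) and the Sult1d1 probe set above, and were named after their values were seen. Groups did not overlap for 2 higher and 4 lower, against 4.31% and 4.54%. These tests have little reach: of simulated 4-fold changes in single probe sets 9.09% were recovered, against 100% in genes. The simulated spreads were those of all probe sets or genes, not of the members alone. The 340 include 16 whose values repeat those of another probe set of the same genes or group.

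The genes that feed, drive and complete conjugation were followed as 12 lists with 96 genes, of which 85 were tested. None passed 5% FDR over all genes in limma. An unadjusted p under 0.05 was reached by 5 that were higher (Cbs, Gclc, Me1, Cyp2c55 and Tiparp) and 2 that were lower (Nnmt and Cyp1a2). Over all genes tested, 1.38% were higher and 1.68% lower at that threshold. The median difference of the 85 was 0.03. Groups did not overlap for 3 higher (Cbs, Gsr and Cyp2c55) and 7 lower (Nnmt, Slco2b1, Mafg, Srxn1, Cyp3a13, Cyp1a2 and Hlf), against 3.40% and 3.73% of all genes tested. In the supply of the cosubstrate UDP-glucuronate, the dehydrogenase gene Ugdh differed by 0.18 and Ugp2 by 0.14. For the sulfate donor PAPS, the synthase gene Papss1 differed by -0.15 and the sulfate transporter gene Slc26a1 by -0.30. Glutathione supply had 9 of 11 genes above 0 and a median of 0.10. Its lead gene by p was Cbs, the first enzyme from homocysteine towards cysteine, at 10.36, 10.37 and 10.35 in control and 10.71, 10.79 and 10.58 in miR-143DOX. Every miR-143DOX array of Cbs was above every control array (difference 0.34, interval 0.06 to 0.62, limma adjusted p = 0.9997). Gclc, the rate-limiting enzyme of glutathione synthesis, read 9.99, 10.49 and 10.69 in control and 11.10, 10.86 and 10.63 in miR-143DOX, and overlapped (difference 0.47, adjusted p = 0.9997 in limma). Among other glutathione enzymes, Gpx4 differed by 0.23 and Hagh by 0.09, with 0 of 7 at p under 0.05.

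Of 14 regulators of the conjugation genes, 0 reached an unadjusted p of 0.05, with 7 above and 7 below 0. Nfe2l2, which encodes NRF2, read 8.69, 8.93 and 9.12 in control and 8.84, 8.98 and 8.92 in miR-143DOX (difference -0.003, interval -0.32 to 0.31). Nr1i3, which encodes CAR, read 9.46, 8.58 and 9.20 in control and 8.87, 9.26 and 9.29 in miR-143DOX (difference 0.06, -0.40 to 0.52). Mafg, a partner of NRF2, was lower without overlap, at 8.57, 8.50 and 8.72 in control against 8.21, 8.32 and 8.42 in miR-143DOX, but missed the threshold (limma, adjusted p = 0.9997), and Rxra differed by -0.22. Indicator genes of the pathways did not go one way. Of 8 NRF2 indicator genes 6 lay above 0, with 0.65 for the NADPH source Me1 (limma, adjusted p = 0.9997). The other 2 lay below 0, with -0.27 for Srxn1, without overlap, and -0.07 for Nqo1. Of 9 CAR and PXR indicators 4 lay above 0, among them Cyp2c55, without overlap at 0.60 (limma, adjusted p = 0.9997), and Cyp2b9. Cyp2b9 read 7.85, 6.55 and 5.14 in miR-143DOX and 5.43, 5.51 and 5.58 in control. The other 5 lay below 0, among them Por at -0.51, Cyp2b10 at -0.45 and Cyp3a13, without overlap, at -0.25. Of 4 Ah receptor indicators, Cyp1a2 was lower without overlap, at -0.49 (adjusted p = 0.9997 in limma), and Tiparp differed by 0.49 (adjusted p = 0.9997).

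Of other conjugation enzymes, Nnmt, the nicotinamide N-methyltransferase, was lower in every miR-143DOX mouse, at 8.60, 8.49 and 8.88 in control and 8.11, 8.37 and 8.22 in miR-143DOX (difference -0.42, limma adjusted p = 0.9997), and the thiopurine methyltransferase gene Tpmt differed by 0.27. For cleavage of conjugates, Gusb and Arsa differed by 0.06 and 0.04. Of 10 transporters of conjugates, 0 reached an unadjusted p of 0.05, with 0.28 for the efflux pump Abcg2 and -0.18 for the uptake carrier Slco2b1. Clock and PAR bZIP genes, 9 of them tested, had the lowest list median at -0.29, with -0.29 for Hlf, -0.56 for Dbp and 0.33 for Nr1d1.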

How the data were processed

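RNA of isolated hepatocytes was measured on 1 Affymetrix array per mouse, in 3 miR-143DOX and 3 control mice. The authors deposited 1 log intensity per probe set and array. The authors' values ran from 1.60 to 15.2, the span of scanner intensities in log2, so the deposited scale was read as log2. The submitters' processing notes name Partek. Their background correction, normalization and summary method were not given in the sources read.

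Of 234873 probe sets, 212097 named 1 gene in the platform annotation, 4475 several and 18301 none. The 75th and 95th percentiles of the arrays differed by up to 0.127 and 0.135, so the values were quantile normalised, and a gene's own probe sets were averaged (median 6 per member, from 1 to 12). Genes in the lowest 25% were left out. The test was the two-sided moderated test of limma (version 3.58.1, R 4.3.3) with the group as the only term. Its p-values were adjusted by Benjamini and Hochberg's method across the 15312 genes, and in a separate fit across the 176154 probe sets above the filter. The number of arrays limits the precision. Simulated data had spreads drawn from the fit to all genes, or to all probe sets, and 200 planted changes. There, 90.6% of 2-fold and 100% of 4-fold changes of genes were recovered, against 0% of 2-fold and 63.6% of 8-fold changes of single probe sets. The members had a larger spread (median SD 0.268, against 0.177 for all genes), so these shares do not give the reach for the members.

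Members named with values on every array are up to 3 per family with the smallest p, those whose groups do not overlap, and a fixed set of well-known isoforms. Other genes are up to 2 per list with the smallest p, with Dbp, Arntl, Nfe2l2 and Nr1i3. The members and lists were chosen with earlier results of these data known. Alternatives covered scaling, filters, probe set summary, array weights, the replicate block, a clock covariate and each array left out.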

Additional observations from a re-analysis of the deposited data

How the results depend on the processing

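In all 18 alternatives, 0 members and 0 genes passed 5% FDR in limma, and the smallest adjusted p of any member was 0.322 (Ugt1a10 without miR-143DOX replicate 3). Among members lower at an unadjusted p under 0.05, of which there were 0, the count was 2 with no filter on dim genes (Ugt2a1 and Ugt2a2), 3 with array weights (Ugt1a10, Ugt2b37 and Sult1d1) and 3 with the replicate block (Sult1d1, Gstp2 and Ugt1a7c). With 1 array left out it ranged from 0 to 4, the 4 without miR-143DOX replicate 3, and the count higher from 0 to 2, the 2 without the same array. Over all genes tested, the count in either direction moved too. It was 469 of 15312 in the main fit, 662 of 20416 with no filter and 1021 of 15312 with array weights. With 1 array left out it ran from 300 to 1128 of 15312, the 1128 without miR-143DOX replicate 3. Taking only the brightest probe set moved the median difference of all members from -0.04 to 0.089, and so across 0, and that of GST from 0.02 to 0.16. The GST median ranged from -0.041 to 0.17 with 1 array left out, the highest without miR-143DOX replicate 3. The causes were not tested. Of the 42 members, 28 turned the sign of their difference in at least 1 alternative and 14 in none that gave them a value, which for Sult1c2 was 17 and for Sult4a1 16 of the 18. Deviations of same-numbered arrays of the groups correlated at r of 0.11, 0.05 and 0.30. Those of different-numbered arrays ran from -0.26 to 0.15, the highest for control replicate 2 with miR-143DOX replicate 1. The labels do not say that the numbers pair the mice, so the main fit had no block. Whether they do was not tested. Over all genes the block raised the count at an unadjusted p under 0.05 from 469 to 734. Counting probe sets with identical values once, chosen after seeing the data, changed no count among the members. Dim members have no bound here, since no detection call was available.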
